A study of Mus musculus with 121 samples.

Results

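Untreated cells of the YY1-AID subline were compared with parental G1E-ER4 cells, using 4 of the 121 samples of the series: parental replicates 1 and 2 and YY1-AID replicates 1 and 2. The members were taken by their labelled genotype (parental, or YY1-AID subline) and treatment (none), and all 4 libraries were polyadenylated RNA from asynchronous cells labelled as erythroid progenitors derived from ES cells. Another untreated line, labelled YY1-AID subline3 and called clone 3 here, was measured in the same table with 2 libraries. Its values are set beside those of YY1-AID, because both lines are labelled as YY1-AID. The labels do not say how many clones a subline holds, whether the replicates were separate cultures, or which copies of Yy1 carry the tag. P-values therefore measure the spread between these libraries, which may be technical. An auxin series of the YY1-AID subline, with 3 libraries each at 0, 4, 24 and 48 h, is set beside these lines at the end. The comparison asks how far the tagged line differs from its parent when no auxin has been given.

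YY1 is a zinc finger transcription factor that binds promoters and enhancers and can hold them together. In a degron line the protein is fused to a tag that is recognised by an auxin-dependent ubiquitin ligase, so that adding auxin leads to breakdown of the fusion. G1E-ER4 cells are erythroblasts from mouse ES cells that lack GATA1 and carry GATA1 fused to the hormone-binding part of the estrogen receptor. GATA1 drives globin, heme and red cell membrane genes, while GATA2 acts earlier, in progenitors, and in mast cells.

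In the untreated tagged line, RNA of the adult globins Hbb-b1, Hba-a1 and Hba-a2, but not Hbb-b2, of the membrane proteins band 3 and Kel, of the heme enzyme Alas2 and of the platelet integrins Itgb3 and Itga2b was higher than in parental cells. Mast cell genes such as Hdc and Ms4a2, Gata2 and several HoxC genes were lower. A small set of genes, among them Nckap1l and Dock2 of the blood cell actin machinery, was close to absent. Clone 3 also had more RNA of these 3 globins, band 3, Kel and Alas2 and less of Hdc and Ms4a2 than parental cells, while its Nckap1l and Dock2 levels were above the parental ones. Lists of ribosomal, mitochondrial, S phase and mitotic genes held no call, where 1.63% of all tested genes were called higher and 2.4% lower.

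The 6 libraries of untreated cells held 35.17 to 44.92 M counts. Of 22493 gene symbols listed, 10892 passed the filter on low counts. The comparison was defined with the replicate number as a block. Libraries with the same replicate number deviated together from their group means (correlations of 0.738 for parental and YY1-AID, 0.678 for parental and clone 3, and 0.628 for clone 3 and YY1-AID). The median absolute difference between replicate 1 and replicate 2 was 0.444 log2 units in the parental line and 0.462 in YY1-AID. Between parental replicate 1 and YY1-AID replicate 1 it was 0.149. Replicate 1 of the 2 lines thus lay closer together than the replicates of either line. A separate time series of auxin treatment starts from 3 libraries at 0 h that carry the same genotype label, YY1-AID subline. These libraries stood apart from the untreated YY1-AID libraries in many genes that were lower in YY1-AID than in clone 3. Among 101 genes that were lower in untreated YY1-AID than in clone 3 by more than 2 log2 units and were tested in both tables, the 0 h level lay nearer to clone 3 for 94. Among 21 genes that were higher in YY1-AID by as much, it lay nearer to YY1-AID for 19. Without the need to be tested in the series, the genes numbered 123 and 25. That need favours genes expressed in the series, and so the subline with the higher level. The levels were normalised separately in each table, and the cause of the difference was not tested.

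In YY1-AID, 177 genes were higher than in parental cells (1.63% of those tested) and 261 were lower (2.4%) at an adjusted p under 0.05. Of these, 73 were higher and 170 lower by more than 1 log2 unit. The median log2 fold change of all genes tested was 0.017. Both replicate pairs moved in the fitted direction for 436 of the 438 called genes. The fit with the block favours genes whose pairs agree, so this count describes the calls and is no test of them. The 2 groups did not overlap for 146 of the higher and 239 of the lower genes (87.9% of called genes, against 21.3% of all tested genes). Calling picks genes whose groups lie apart in these same libraries. This share, and a lack of overlap in single called genes below, is thus no test of the calls either. Beside these counts, clone 3 had 457 genes higher (4.2%) and 223 lower (2.05%) than the same parental libraries. YY1-AID tested directly against clone 3 gave 190 genes higher (1.74%) and 483 lower (4.43%). Of the genes called against parental cells, 44 of the 177 higher and 151 of the 261 lower also differed between the 2 sublines, against 6.179% of all genes tested. Both tests use the same YY1-AID libraries, and the genes were picked for their values in them. A share above that of all genes is therefore built in and is no separate support. The counts depend on the block: without it edgeR called 0 genes, with 557 at an unadjusted p under 0.05, and DESeq2 called 60 higher and 132 lower. With the 4 parental and YY1-AID libraries alone and the block, 886 were higher and 1063 lower. Leaving out parental replicate 1 gave 118 higher and 219 lower, and leaving out parental replicate 2 gave 123 and 173.

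**Figure D1:**
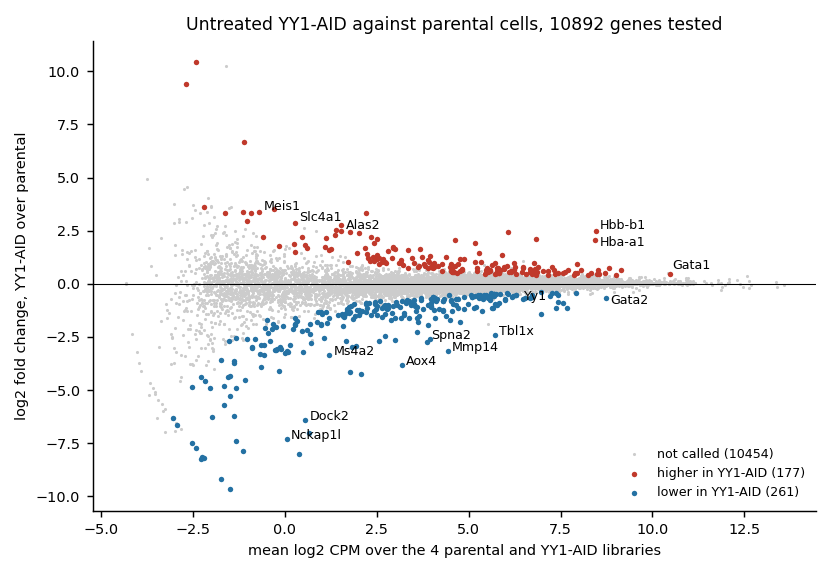
Log2 fold change of each gene in untreated YY1-AID over parental cells (vertical axis) against its mean log2 CPM (counts scaled per M counts of the library) over the 4 libraries (horizontal axis), with 177 genes called higher in red, 261 called lower in blue and the rest in grey. Of the called genes, 170 lie below −1 and 73 above 1, and the 2 red points at the top left are the predicted genes Gm14432 and Gm5884, each with 0 counts in 1 of the YY1-AID libraries.

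Yy1 RNA does not check the label, since the tag acts on the protein. The Yy1 level was 6.26 and 6.83 log2 CPM in the parental libraries and 5.59 and 6.77 in the YY1-AID libraries. YY1-AID replicate 1 was the lowest of the 4, and the groups overlapped. The log2 fold change was −0.34 ± 0.17, with an adjusted p of 0.39. Here and below, ± gives the standard error from the fit to all libraries of a table, with 2 libraries per group for the untreated lines. It is not the spread of the 2 replicate pairs, whose Yy1 differences were −0.66 and −0.06. The Yy1 level of clone 3 was 6.26 and 6.67 log2 CPM. Of 20 genes listed on either side of Yy1 in the RefSeq annotation of GRCm38.p6, 4 were tested (Slc25a29, Slc25a47, Wars and Wdr25), and none was called. Among 31 tested genes of the YY1 and Polycomb list, 1 was called. This was Sfmbt2, a Polycomb protein that works with YY1, at 5.12 and 6.07 in parental and 5.69 and 7.01 log2 CPM in YY1-AID (0.77 ± 0.13, adjusted p = 0.011). Without parental replicate 2 or YY1-AID replicate 2 its adjusted p was 0.083 and 0.086. None of the 13 subunits of INO80, the remodeller that binds YY1, was called.

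Most globin genes tested, and a minority of red cell membrane and heme genes, were higher in YY1-AID. In bulk RNA, more cells of a stage and more RNA per cell cannot be told apart. Of 9 globin genes listed, 5 were tested and 4 were higher and 0 lower, with a list median of 2.07 log2 units against 0.017 for all genes. Hbb-b1, an adult beta globin, stood at 8.22 and 6.20 log2 CPM in the parental libraries and at 10.10 and 9.29 in YY1-AID. Both YY1-AID libraries were above both parental ones, and the log2 fold change was 2.46 ± 0.24 (adjusted p = 0.00064). Hba-a1, an alpha globin, had 7.94 and 6.86 in parental and 9.89 and 9.06 in YY1-AID, again without overlap (2.07 ± 0.10, adjusted p = 1e-05). Both genes are among those named by a rule that required no overlap. Hba-a2 changed by 2.46 ± 0.10 and Hbq1b, the theta globin, by 1.60 ± 0.32 (adjusted p = 0.026). The call of Hbq1b was lost without parental replicate 2 (0.11) or YY1-AID replicate 2 (0.058). Hbb-b2, the other adult beta globin, was at 2.22 and 1.32 in parental and 2.11 and 0.61 in YY1-AID and was not called (−0.37 ± 0.20, adjusted p = 0.47). In clone 3 it was at 5.01 and 4.01, and the 2 sublines differed by −3.13 log2 units in their test. Globin genes have near-identical copies, so how the authors' counting split reads between Hba-a1 and Hba-a2 or between Hbb-b1 and Hbb-b2 is uncertain.

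Of 17 red cell membrane genes, 5 were higher and 0 lower (median 0.31). Slc4a1, the anion exchanger band 3, had 18 and 15 counts in the parental libraries against 91 and 166 in YY1-AID, a log2 fold change of 2.86 ± 0.37 (adjusted p = 0.0029). Kel, a blood group antigen, was at 4.32 and 4.15 log2 CPM in parental and at 5.23 and 5.09 in YY1-AID (0.92 ± 0.12, adjusted p = 0.0035). All parental values of both genes lay below all YY1-AID values. Tmod1, which caps actin in the membrane skeleton, was higher by 0.93 ± 0.17, and Car2, carbonic anhydrase, by 0.47 ± 0.10. Tmod1 was not called without parental replicate 2 (adjusted p = 0.12) or YY1-AID replicate 2 (0.086), and Car2 was not called without any 1 of the 4 libraries (0.17 to 0.61). Without parental replicate 2 or YY1-AID replicate 2, 3 members of the list were higher.

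Of 23 heme and iron genes, 5 were higher and 0 lower (median 0.29). Alas2, the erythroid enzyme that starts heme synthesis, was at 0.35 and 0.30 log2 CPM in parental and at 2.79 and 2.72 in YY1-AID (2.48 ± 0.23, adjusted p = 0.00058). The replicates of each line were within 0.1 of each other, and the lines did not overlap. The later enzyme Alad was higher by 0.66 ± 0.11, and the mitochondrial iron importer Slc25a37 and its partner Abcb10 by 0.76 ± 0.12 and 0.80 ± 0.12. Without parental replicate 1, 2 members of the list were higher and 1 was lower (Abcb10 then had an adjusted p of 0.068 and Slc25a37 of 0.094), and without parental replicate 2, 3 were higher and 0 lower. DESeq2 with the block called 8 higher and 1 lower in the list, and without it 2 higher. None of the 16 erythroid regulators was called (median 0.17). Gata1 had 9.67 and 10.68 log2 CPM in parental and 10.08 and 11.26 in YY1-AID (0.50 ± 0.14, adjusted p = 0.09), and its counts cannot separate the locus from the introduced fusion. Klf1, a master regulator of globin genes, changed by 0.22 ± 0.09 (adjusted p = 0.30).

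Clone 3 was also above the parental line in most of these genes. It had Hbb-b1 at 10.71 and 9.51, Kel at 5.05 and 5.16 and Alas2 at 3.01 and 2.60 log2 CPM, and for these 3 genes the test of YY1-AID against clone 3 gave adjusted p-values of 0.29, 0.82 and 0.89. Slc25a37 differed between the sublines, at 6.25 and 6.02 in YY1-AID and 5.55 and 5.54 in clone 3. Since both sublines are set against the same parental libraries, these values do not count as independent. In the 0 h libraries of the time series Alas2 had a mean of 2.915 log2 CPM, on a scale normalised separately.

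**Figure D2:**
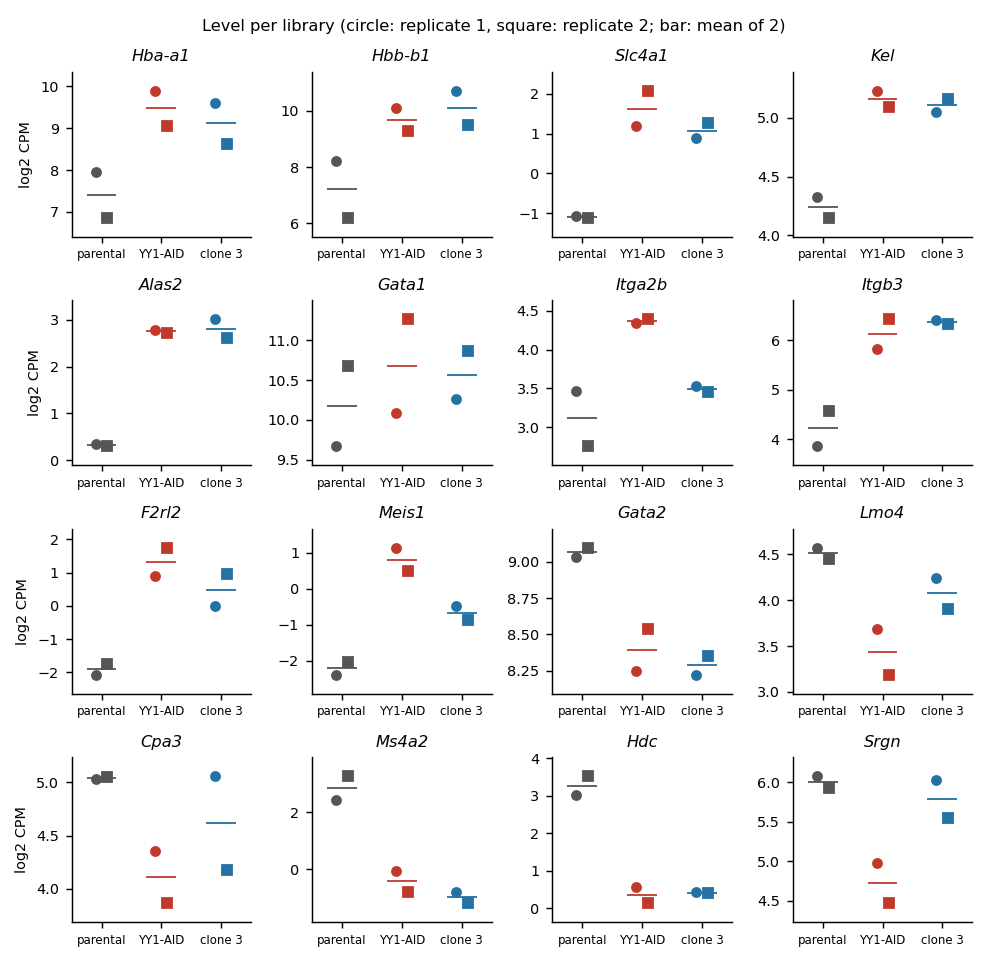
Level in log2 CPM of 16 lineage genes in each library of the parental, YY1-AID and clone 3 lines (circle for replicate 1, square for replicate 2, bar for the mean of 2). For the globins, Slc4a1, Kel and Alas2 both sublines lie above the parental line, for Gata2, Ms4a2 and Hdc both lie below it, and for Srgn and Lmo4 the YY1-AID libraries are the lowest.

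The letters AGATAA were taken for the GATA motif. They were sought in the 250 bases upstream of the start of each gene with a single promoter entry in RefSeq (GRCm38.p6). AGATAA, or TTATCT on the other strand, occurred in 5.974% of 6880 promoters of tested genes. It occurred in 19 of 105 promoters of genes higher in YY1-AID (18.1%) and in 16 of 145 of those lower (11.03%). The YY1 letters AANATGG, or CCATNTT, were in 10.73% of all, 7.619% of the higher and 7.586% of the lower. A match is a description of these letters and not a binding site. The promoters below, 5′ to 3′ on the strand of the gene, are those of red cell, platelet and mast cell genes described here that held the GATA letters, which stand in capitals. The first 3 belong to genes higher in YY1-AID and the last 2, Ms4a2 and Cpa3, to genes lower in it.
Alas2 (GRCm38.p6, chrX:150547167-150547416, plus strand): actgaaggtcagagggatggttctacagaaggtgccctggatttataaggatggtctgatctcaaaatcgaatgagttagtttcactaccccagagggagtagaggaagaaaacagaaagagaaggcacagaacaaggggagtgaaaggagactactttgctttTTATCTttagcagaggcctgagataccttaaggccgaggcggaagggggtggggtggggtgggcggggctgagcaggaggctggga
Kel (GRCm38.p6, chr6:41704326-41704575, minus strand): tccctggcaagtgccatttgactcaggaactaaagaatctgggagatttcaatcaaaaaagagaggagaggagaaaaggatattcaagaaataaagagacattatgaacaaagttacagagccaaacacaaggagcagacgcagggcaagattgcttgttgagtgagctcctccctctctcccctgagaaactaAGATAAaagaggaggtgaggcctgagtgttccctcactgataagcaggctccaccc
F2rl2 (GRCm38.p6, chr13:95696670-95696919, plus strand): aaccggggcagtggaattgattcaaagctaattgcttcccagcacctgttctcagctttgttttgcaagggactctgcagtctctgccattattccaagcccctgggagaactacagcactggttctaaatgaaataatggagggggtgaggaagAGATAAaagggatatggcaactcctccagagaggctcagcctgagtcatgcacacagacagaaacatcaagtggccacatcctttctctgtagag
Ms4a2 (GRCm38.p6, chr19:11623720-11623969, minus strand): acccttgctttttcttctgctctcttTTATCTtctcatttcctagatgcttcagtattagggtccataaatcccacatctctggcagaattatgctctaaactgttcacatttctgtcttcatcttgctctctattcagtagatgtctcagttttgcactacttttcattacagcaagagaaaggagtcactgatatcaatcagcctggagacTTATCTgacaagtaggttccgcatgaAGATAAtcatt
Cpa3 (GRCm38.p6, chr3:20242182-20242431, minus strand): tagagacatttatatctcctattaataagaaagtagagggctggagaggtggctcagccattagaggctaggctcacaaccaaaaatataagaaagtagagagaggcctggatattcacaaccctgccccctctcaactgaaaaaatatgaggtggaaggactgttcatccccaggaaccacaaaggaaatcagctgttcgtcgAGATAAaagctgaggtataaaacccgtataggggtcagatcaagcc
Alas2 and Kel each hold 1 marked copy, while Ms4a2 holds 3. The same letters thus stood upstream of genes that were higher and of genes that were lower. Variants such as TGATAA, which the Kel, Hba-a1 and Hba-a2 promoters hold, were not sought and are not marked. Among the described genes whose promoters were searched, Hba-a1, Hba-a2, Itga2b, Pf4, Tmod1, Abcb10 and Hdc held neither AGATAA nor TTATCT.

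Of 20 megakaryocyte and platelet markers listed, 13 were tested, 4 were higher and 1 was lower (median 0.43). Itgb3 and Itga2b, the 2 chains of the platelet fibrinogen receptor, were at 3.86 and 4.58 and at 3.47 and 2.75 log2 CPM in parental cells. In YY1-AID they were at 5.83 and 6.42 and at 4.35 and 4.39. Neither gene overlapped between the lines, with log2 fold changes of 1.90 ± 0.18 (adjusted p = 0.00058) and 1.24 ± 0.19 (adjusted p = 0.0073). Both are among the genes named by a rule that required no overlap. Pf4, a platelet chemokine, was higher by 1.23 ± 0.18. F2rl2, a thrombin receptor, had 8 and 9 counts in parental and 75 and 132 in YY1-AID (3.51 ± 0.40). Rab27b, a secretory GTPase, was lower, with 25 and 35 counts against 2 and 3 (−3.57 ± 0.69, adjusted p = 0.021). It was not called without parental replicate 1 (0.051), parental replicate 2 (0.18) or YY1-AID replicate 2 (0.10), and not with the stricter count filter. The defining markers Gp1bb, Vwf, Clec1b and Mmrn1 had 0 counts in all 4 libraries, and the summed level of the tested markers was 524.6 to 540.3 CPM in parental and 602.7 to 677.4 in YY1-AID.

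Progenitor regulators were split, with 2 of 14 higher and 2 lower (median 0.05). Gata2, which GATA1 replaces as red cells mature, was at 9.03 and 9.09 log2 CPM in parental and at 8.25 and 8.54 in YY1-AID (−0.67 ± 0.10, adjusted p = 0.0059). Without parental replicate 1 its adjusted p was 0.10. Lmo4, a LIM domain adaptor, was lower by 1.07 on the log2 scale (SE 0.14). Meis1, a homeobox partner of HOX proteins, had 6 and 7 counts in parental and 88 and 54 in YY1-AID (3.36 ± 0.50, adjusted p = 0.006). Ikzf2, or Helios, was higher by 1.04 ± 0.23, with overlapping libraries (2.16 and 4.57 against 3.58 and 5.36) and an adjusted p of 0.11 without parental replicate 1. Of 29 genes for cytokine receptors and JAK-STAT signalling, 2 were higher and 1 lower, and without parental replicate 1 or parental replicate 2 the lower ones numbered 3 and 2. Il2rg, the common gamma chain of interleukin receptors, was at 3.44 and 3.72 log2 CPM in parental and 5.67 and 5.64 in YY1-AID (2.07 ± 0.17, adjusted p = 0.00025). Ifngr1, a chain of the interferon gamma receptor, was lower (−1.07 ± 0.16, adjusted p = 0.006).

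Mast cell genes were lower. Of 17 markers listed, 7 passed the filter on low counts, and 5 of these were lower and 0 higher (median −1.28). Hdc, which makes histamine, was at 3.02 and 3.52 log2 CPM in parental and 0.58 and 0.14 in YY1-AID (−2.95 ± 0.29, adjusted p = 0.00064). Ms4a2, the beta chain of the high-affinity IgE receptor, was at 2.43 and 3.25 against −0.07 and −0.80 (−3.34 ± 0.41, adjusted p = 0.0022). Leaving out single libraries moved the Ms4a2 value between −2.63 (without parental replicate 2) and −4.07 (without parental replicate 1). Neither gene overlapped between the lines, and clone 3 was low in both, with Hdc at 0.44 and 0.40 and Ms4a2 at −0.79 and −1.19. Srgn, the granule proteoglycan serglycin, was at 6.07 and 5.92 in parental, 4.97 and 4.47 in YY1-AID (−1.28 ± 0.12, adjusted p = 0.00064) and 6.03 and 5.54 in clone 3. Cpa3, a granule carboxypeptidase, was lower by 0.95 on the log2 scale (SE 0.19, adjusted p = 0.026), and not called without parental replicate 2 (0.23). Cd200r3 was lower by 1.41 (SE 0.29), and not called without parental replicate 2 (0.13), which left 3 markers lower. Without YY1-AID replicate 2, 5 were lower and 1 was higher. The 2 markers without a call were Gzmb (−0.04 ± 0.22) and Mcpt1, which had 3 and 0 counts in parental and 27 and 9 in YY1-AID. The summed level of the 7 markers was 128.3 to 130.4 CPM in parental and 45.82 to 64.56 in YY1-AID, and Mcpt4 and Mrgprb2 had 0 counts.

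Most markers of other cell types did not pass the filter on low counts. The myeloid markers Fcgr3 and Clec4d and the lymphoid marker Lck were better expressed. Their means over the 4 libraries were 3.60, 3.49 and 3.19 log2 CPM. Of 23 myeloid markers listed, 6 were tested and 1, the Fc receptor gene Fcgr3, was lower (−1.09 ± 0.16, adjusted p = 0.006). The neutrophil and macrophage genes Prtn3, Lyz1, Lyz2, S100a8 and S100a9 had 0 counts in the 4 libraries. Of 18 lymphoid markers, 2 were tested and Cd3g, a T cell receptor subunit gene, was higher by 1.51 ± 0.32, with adjusted p-values of 0.062 to 0.21 without either parental library or YY1-AID replicate 2. Of 14 pluripotency markers, 1 was tested and not called, and 9, Pou5f1 and Sox2 among them, had 0 counts. The part of rarer cell types in these differences was not tested.

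A set of 7 genes was close to absent in YY1-AID while the parental cells expressed them. The set was chosen after its values were seen, as genes called lower with under 0.25 CPM in both YY1-AID libraries and at least 2 CPM in both parental ones. Several of the 7 act in white blood cells. Nckap1l, or HEM1, a subunit of the WAVE complex that builds branched actin in blood cells, had 419 and 379 counts in the parental libraries and 1 and 4 in YY1-AID. The ratio of parental to YY1-AID was 163.6, with a 95% counting interval of 69.8 to 505.2. Dock2, a guanine exchange factor for Rac in the same pathway, had 384 and 537 counts in parental and 5 and 6 in YY1-AID, a ratio of 85.82 (47.74 to 172.5). Akap11, an anchor for protein kinase A, had 372 and 972 against 3 and 2, a ratio of 275.5 (117.8 to 849.9). Snx20, a sorting nexin, had 107 and 90 counts against 0 and 0, which makes it at least 67.3-fold lower, counting the floor as 3 counts over both YY1-AID libraries. Gcat, a mitochondrial enzyme of threonine breakdown, had 130 and 78 counts against 0 and 1. Blnk, a B cell adaptor, had 88 and 76 against 2 and 0. The last of the 7, 3830403N18Rik, had 101 and 163 against 0 and 1. The intervals cover counting error only, and fitted fold changes of such genes depend on the prior count. The reverse pattern met the same limits for 1 gene, Cpne6, with 1 and 1 counts in parental and 136 and 94 in YY1-AID.

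Clone 3 went the other way for several of these genes. It had 2585 and 3725 counts of Nckap1l, 2456 and 4307 of Dock2 and 428 and 408 of Snx20, all above the parental libraries, which lay between the sublines. Hcls1, a haematopoietic cortactin relative from the leukocyte actin and adhesion list, showed the same order, at 1.80 and 1.85 log2 CPM in parental, −0.45 and −0.46 in YY1-AID and 5.59 and 5.28 in clone 3. Across 53 genes that were lower in YY1-AID than in clone 3 by more than 4 log2 units, the parental mean lay between the 2 sublines for 45. Their median was −4.039 log2 CPM in YY1-AID, −0.5249 in parental and 1.101 in clone 3. Of 12 genes that were higher in YY1-AID by as much, the parental mean lay between for 10. The genes were picked for a gap between the sublines, so their medians are a description. The 0 h libraries of the time series, which have the YY1-AID label, expressed most of the 7 genes. Nckap1l was at 5.34 to 5.75 log2 CPM there, Dock2 at 6.08 to 6.26, Akap11 at 4.11 to 4.59 and Snx20 at 2.91 to 3.12. Gcat (−1.17 to 0.20) and 3830403N18Rik (−2.32 to −0.62) were the exceptions, below the parental level. Of the 20 tested genes in the leukocyte actin and adhesion list, 4 were lower (Dock2, Hcls1, Gmfg and Itga4) and 1 was higher (Itgb7), with a median of 0.04. Gmfg, which trims branched actin, was not called without parental replicate 2 (adjusted p = 0.12), which left 2 members lower. Itga4, an integrin chain, was called only without YY1-AID replicate 2 among the 4 fits that left out 1 library (0.066 to 0.32 in the others), and Itgb7, a related chain, was not called without any 1 of the 4 libraries (0.14 to 0.43).

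**Figure D3:**
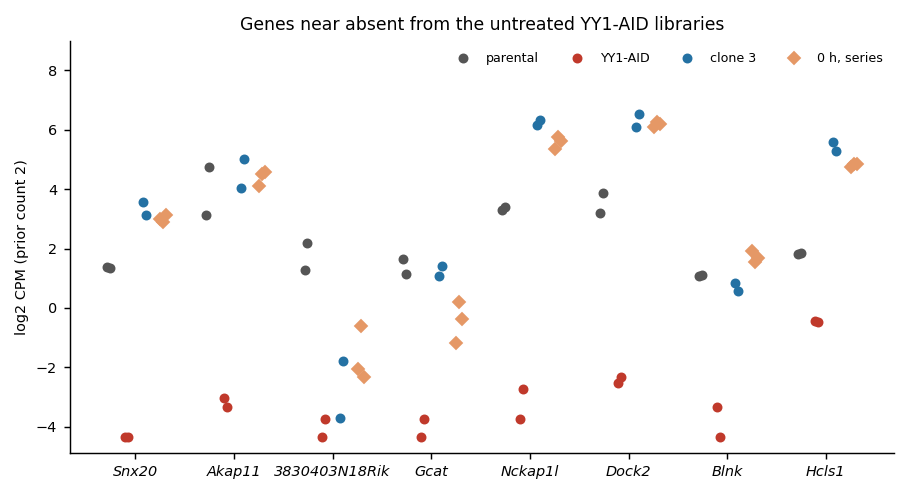
Level in log2 CPM of the 7 genes near absent from untreated YY1-AID, and of Hcls1, in each parental, YY1-AID and clone 3 library and in the 3 libraries at 0 h of auxin in the time series (diamonds, normalised separately). The red YY1-AID points lie lowest for each gene, together with clone 3 for 3830403N18Rik, the 0 h points lie near clone 3 for Snx20, Akap11, Nckap1l, Dock2 and Hcls1, and the lowest points, near −4.33, stand for 0 counts.

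Among better expressed genes, with a mean of at least 3 log2 CPM, the largest decrease was in Aox4, an aldehyde oxidase. It was at 4.79 and 5.36 log2 CPM in parental and 1.29 and 1.28 in YY1-AID (−3.82 ± 0.18, adjusted p = 6e-06), while clone 3 had 5.33 and 5.95. Mmp14, a membrane-bound matrix protease, was at 5.84 and 6.18 against 2.66 and 3.05 (−3.16 ± 0.12, adjusted p = 3.1e-06). Spna2, the non-erythroid alpha spectrin, was at 5.36 and 5.09 against 2.58 and 2.41 (−2.74 ± 0.13). Tbl1x, part of a nuclear receptor corepressor complex, was at 6.59 and 7.24 against 4.54 and 4.47, and clone 3 was at 6.92 and 7.35. In each of these genes the lines were further apart than the replicates, and YY1-AID was also below clone 3. The rule that named these genes required lines that do not overlap, so their separation is no result. The other genes named by the same rule were Slitrk5, the sulfate donor synthase gene Papss2, Lcp2 (the adaptor SLP-76), Cmtm7, Ng23, the potassium channel subunit gene Kcne3 and the malic enzyme gene Me1, with log2 fold changes of −2.61 to −1.61. Papss2 and Kcne3 were low in clone 3 too, at 2.76 and 2.47 and at 2.38 and 1.83 log2 CPM. Clone 3 was also called lower than parental cells for Spna2, Me1, Mmp14 and Cmtm7, with log2 fold changes of −1.48, −0.78, −0.72 and −0.69. It was not called lower for Aox4, Slitrk5, Tbl1x, Lcp2 or Ng23. On the other side, besides the globins, Il2rg and the platelet integrins, the highest were Muc6, a mucin, at 5.19 and 6.38 in parental and 7.31 and 8.47 in YY1-AID (2.10 ± 0.10, adjusted p = 6e-06), Btg2, an antiproliferative p53 target (1.63 ± 0.21), and Ecm1 (1.59 ± 0.18). Sept1, a septin, and Lgmn, a lysosomal protease, were higher by 1.35 ± 0.11 and 1.32 ± 0.17.

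Some called genes lay side by side on their chromosomes. Placed in the order of RefSeq GRCm38.p6, 21 of 175 higher genes (12%) and 28 of 260 lower genes (10.77%) had a tested neighbour called in the same direction. Of all genes, 1.63% were called higher and 2.4% lower. A gene was counted if the neighbour on either side was called, so these shares of single genes are lower than a like background. Of 10 runs with at least 3 called genes, the one with the most calls covered 10 consecutive tested genes from Stat2 to Myl6. All 10 had a positive log2 fold change, between 0.34 and 0.81 with a median of 0.66, and 7 were called higher. Cs, citrate synthase, was at 8.37 and 8.04 log2 CPM in parental and 8.91 and 8.81 in YY1-AID (0.65 ± 0.10, adjusted p = 0.0066). Smarcc2, a core subunit of the SWI/SNF remodeller, was at 6.62 and 6.81 against 7.16 and 7.52 (0.62 ± 0.10, adjusted p = 0.008), and neither gene overlapped between the lines. The others called were Stat2, an interferon signalling factor, Pan2, a deadenylase subunit, Obfc2b, Rnf41 and Myl6, a myosin light chain. The 10 tested genes before the stretch had a median of −0.01 and the 10 after it a median of −0.03, with 0 called on either side. In clone 3 the same 10 genes had a median of −0.39 against parental, 9 of 10 were negative and 3 were called lower. The test of YY1-AID against clone 3 passed for 9 of the 10. Over running medians of 15 neighbouring genes with a mean of at least 3 log2 CPM, the highest of 7816 windows was in this stretch (0.62, centred on Cnpy2), and 0.1% of windows exceeded 0.3784. The windows overlap and those over the stretch are among them, so this limit is not independent of the stretch. Single libraries moved the count. Without parental replicate 2, 1 of the 10 was called with a median of 0.543, and without parental replicate 1, 5 were called with a median of 0.754. Without YY1-AID replicate 2, 5 were called with a median of 0.615. The stretch was chosen after its values were seen.

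**Figure D4:**
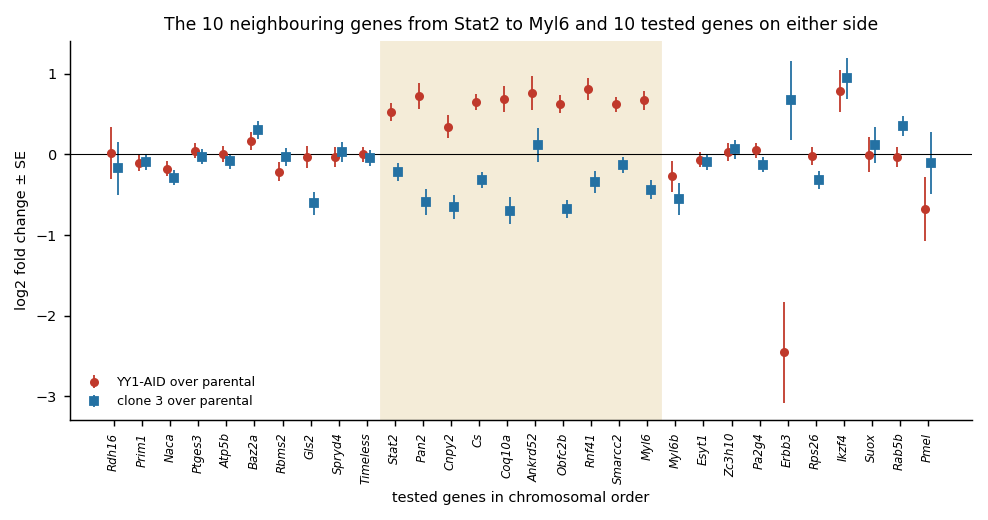
Log2 fold change with standard error of YY1-AID (red circles) and clone 3 (blue squares) over the parental line for the 10 tested genes from Stat2 to Myl6 (shaded) and 10 tested genes on either side, in chromosomal order. All 10 red points in the shaded stretch lie above 0 and 9 of the 10 blue points below it, and the medians return to near 0 on both sides.

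The lowest running median (−0.34, centred on Arhgef25) fell on the run of Os9, B4galnt1 and Arhgef25, all called lower by 0.41 to 0.71 on the log2 scale. Os9 lost its call without any 1 of the 4 libraries (adjusted p = 0.16 to 0.60), B4galnt1 without 3 of them (0.15 to 0.24) and Arhgef25 without parental replicate 1 (0.12) or YY1-AID replicate 2 (0.079). Neighbours in the HoxC cluster were lower. Of 8 tested Hox genes, 4 were lower and 0 higher (median −0.81), and all 4 lie in this cluster, whose genes pattern the trunk and are kept silent by Polycomb in many tissues. Hoxc8 had 544 and 545 counts in parental and 230 and 144 in YY1-AID (−1.61 ± 0.22, adjusted p = 0.0041). Hoxc5 was at 5.70 and 5.76 log2 CPM against 4.87 and 4.46 (−1.07 ± 0.13, adjusted p = 0.0026), and neither overlapped. Hoxc4 changed by −0.64 ± 0.11 and Hoxc10 by −2.13 ± 0.50 (adjusted p = 0.05 when rounded). Hoxc4 was not called without parental replicate 2 (adjusted p = 0.21) or YY1-AID replicate 2 (0.12). In clone 3 these 4 genes had log2 fold changes of −0.24 to −1.48. Klf7 and Plekhm3, 2 genes of another run, had 0 counts in YY1-AID replicate 1.

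General programs held few calls. Of all tested genes, 1.63% were called higher and 2.4% lower, so a short list without a call is near the overall share. No gene was called among 25 S phase, 25 G2 and M phase, 23 cholesterol synthesis, 21 integrated stress response, 13 heat shock, 15 immediate early, 85 oxidative phosphorylation, 12 mitochondrially encoded, 76 mitochondrial ribosomal, 80 cytosolic ribosomal, 43 ribosome biogenesis and 19 cohesin and condensin genes. The medians of these lists lay between −0.24 (immediate early genes) and 0.22 (heat shock). Replication-dependent histone genes had a median of −0.36 with 13 of 57 positive and 0 called. MHC and imprinted genes had 0 of 9 and 0 of 9 called. Single calls were made for Ccnd3, a G1 cyclin (0.42 ± 0.09), Bcl2l1, the survival factor BCL-XL (0.52 ± 0.11), and Pdk1, a hypoxia target (0.51 ± 0.10), and each lost its call without 3 or more of the 4 libraries in turn. Among 23 p53 targets, Btg2 was higher and Cdkn1a, the cell cycle inhibitor p21, was lower, at 6.35 and 6.76 in parental and 5.77 and 6.28 log2 CPM in YY1-AID (−0.53 ± 0.11, adjusted p = 0.036). Cdkn1a lost its call without either parental library or YY1-AID replicate 1 (0.17 to 0.34).

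The differences between untreated lines were set beside the response of the YY1-AID time series to auxin, which shares no library with them. Auxin for 24 h raised 3253 of 15157 genes (21.5%) and lowered 3258 (21.5%), and 48 h raised 3777 (24.9%) and lowered 3733 (24.6%). Over 9085 genes tested in both tables the log2 fold changes of YY1-AID against parental and of 24 h against 0 h had a Pearson correlation of 0.042 and a Spearman correlation of −0.018, and for 48 h of 0.076 and 0.025. These are across genes, which are not independent replicates. Of 166 genes higher in YY1-AID, 44 were also higher after 24 h (26.51%, and 2.393% of the 1839 genes raised by auxin), where 20.24% of the 9085 were, and 53 were lower (31.93%, where 29.58% were). Of 232 lower genes, 73 were also lower at 24 h (31.47%, and 2.717% of 2687), and 53 were higher (22.84%). At 48 h the higher genes were also higher for 65 of 166 (39.16%, against 24.22% of all) and lower for 43 (25.9%, against 32.69%). The lower genes were also lower for 85 of 232 (36.64%) and higher for 59 (25.43%).

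Single genes moved the same way in both. Itgb3, Btg2, Arhgap23, Grifin and Cited2 were higher in YY1-AID and after 24 h, and Mmp14, Tgfbr3, Vim, Lgals9, Papss2 and Cmtm7 were lower in both. Slc4a1 was raised by 2.30 ± 0.26 at 24 h and 2.85 ± 0.26 at 48 h, and Itga2b by 1.69 ± 0.13 and 2.71 ± 0.13. Of 12 megakaryocyte and platelet markers tested in the series, 5 were higher and 1 lower at 24 h (median 0.53), and 9 were higher and 0 lower at 48 h (median 1.195). Of the 23 heme and iron genes, 3 were higher and 12 lower at 24 h (median −0.21), and 3 and 10 at 48 h (median −0.17). Of 8 mast cell markers tested in the series, 1 was higher and 1 lower at 24 h, and 3 and 2 at 48 h. Of 21 red cell membrane genes, 6 were higher and 4 lower at 24 h, and 8 and 4 at 48 h. Mmp14 changed by −2.35 ± 0.16 at 24 h and −3.66 ± 0.18 at 48 h. The alpha globin Hba-a1 passed neither test with auxin. It had −0.17 ± 0.21 at 24 h (adjusted p = 0.56) and 0.52 ± 0.21 at 48 h (adjusted p = 0.053). Sfmbt2 and Aox4 went opposite ways. Sfmbt2, higher in untreated YY1-AID, changed by −3.21 ± 0.11 at 24 h, and Aox4, lower in untreated YY1-AID, by 0.99 ± 0.09. Nckap1l was not called at 24 h (−0.07 ± 0.13, adjusted p = 0.70). Yy1 mRNA had −0.09 ± 0.09 at 24 h.

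**Figure D5:**
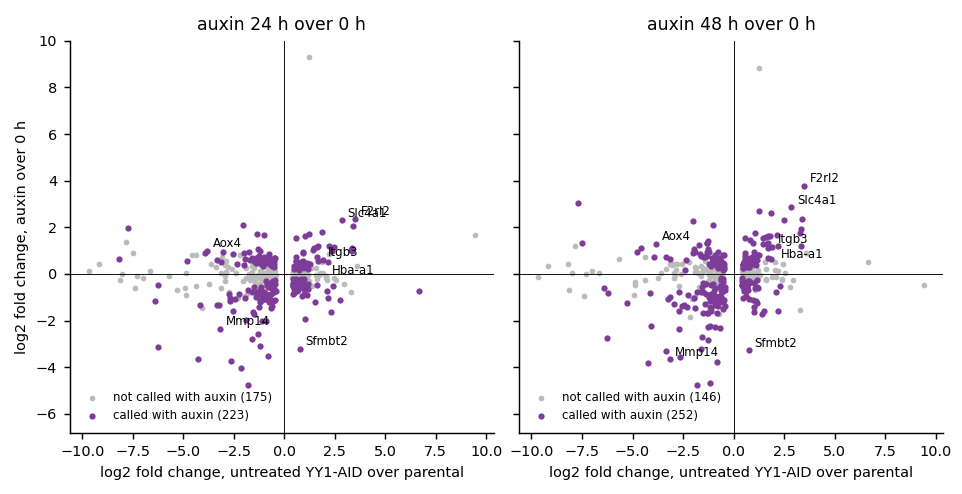
Log2 fold change after 24 h (left) and 48 h (right) of auxin over 0 h against the log2 fold change of untreated YY1-AID over parental cells, for the 398 genes called against parental and tested in both tables, with those also called with auxin in purple (223 at 24 h, 252 at 48 h). The points spread over all 4 quadrants, with Slc4a1 and F2rl2 at the upper right, Mmp14 at the lower left and Sfmbt2 at the lower right.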

How the data were processed

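RNA-seq libraries were made from polyadenylated RNA with a stranded kit, per the labels' protocols. Per gene symbol the authors deposited estimated counts, already whole numbers in the files, and their processing notes name Salmon 0.13.1, DESeq2 and build mm9. The sources used here do not give the transcript set or the strand setting. edgeR 4.0.16 (R 4.3.3) was run on the 6 libraries of untreated cells with TMM scaling, filtering by filterByExpr, a quasi-likelihood test and the replicate number as a block (2 residual degrees of freedom), and on the 12 libraries of the auxin series with no block. Benjamini-Hochberg adjustment covered all genes tested in a table, with a threshold of 0.05. The replicate numbers come from the sample titles, and the definition of the comparison set them as a block. The labels do not say what the number marks. Levels are log2 CPM (counts per M counts of the library after TMM) with a prior count of 2. Named by rule were Yy1, the 12 highest and 12 lowest called genes with a mean of at least 3 log2 CPM and no overlap, up to 4 members per list by smallest p, and up to 6 genes per direction shared with 24 h of auxin. Other named genes were chosen after their values were seen. Some genes are not reported here, although list counts include them. The libraries compared, lists and tests were chosen with earlier results of these data known. On simulated counts for YY1-AID against parental (10794 genes tested), 87% of changes of 1 log2 unit and 97% of 2 were recovered, and for 24 h of auxin (14763 genes) 69.4% and 95%. The simulated spread followed the fitted trend with expression level, and replicate shifts were shared by all untreated lines. Spread particular to single genes was not simulated, so these shares may overstate recovery in the data. Of 10892 symbols, 10703 matched RefSeq GRCm38.p6 for gene order. DESeq2 1.42.0, other filters, other scaling and fits without single libraries were tried as alternatives.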

Additional observations from a re-analysis of the deposited data

Results flagged for a closer look

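Of the genes named above and called against parental cells by the naming rule or as near absent, 31 also passed the test of YY1-AID against clone 3. Of all tested genes, 6.179% passed it. The named genes were picked for their values in the YY1-AID libraries, which this test uses again, so passes are in part built in. Values are log2 fold changes of YY1-AID over clone 3. Large gaps were in genes near absent from YY1-AID: Nckap1l at −10.19, Dock2 at −9.18, Akap11 at −8.58, Gcat at −7.25 and Blnk at −5.85. Hcls1, still at 0.68 CPM in both YY1-AID libraries, had −5.99. Snx20, with 0 counts in YY1-AID, had a fitted value of −11.70, which depends on the prior count and is no bound. Among the lowest well-expressed genes, Aox4 had −4.38, Slitrk5 −2.65, Tbl1x −2.62, Mmp14 −2.44, Lcp2 −1.84, Ng23 −1.62, Spna2 −1.27, Cmtm7 −1.12 and Me1 −0.83. Among list members that were lower in YY1-AID, Gmfg had −1.50, Fcgr3 −1.24, Srgn −1.06, Ifngr1 −0.84, Cdkn1a −0.76, Hoxc5 −0.70 and Lmo4 −0.64.

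On the higher side the platelet integrin gene Itga2b and the protease gene Lgmn both had 0.89, Stat2 had 0.75, Muc6 0.74, Il2rg and Sfmbt2 0.68, Slc25a37 0.60 and Itgb7 0.56. Both lines are tagged, and what else differs between them was not tested.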

How the results depend on the processing

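All 438 calls kept their direction in each alternative in which they were tested, whereas the number of calls moved. Without the replicate block edgeR called 0 genes higher and 0 lower (0 and 0 by over 1 log2 unit), although 337 of the 438 still had an unadjusted p under 0.05. Without the block DESeq2, an alternative added after seeing the data, called 60 higher and 132 lower, of which 58 and 130 were called with the block in edgeR. With the 4 parental and YY1-AID libraries alone, 886 genes were higher and 1063 lower, 136 and 260 of them by over 1 log2 unit. Leaving out 1 library at a time gave 118 to 260 genes higher and 173 to 311 lower, and 82 to 115 higher and 134 to 234 lower by over 1 log2 unit. In those fits a line with 1 library is assumed to vary like the others. DESeq2 with the block (254 higher, 315 lower), DESeq2 size factors in edgeR, no count filter and a stricter filter stayed within 1.5 times of 177 and 261 for both counts. Of 100 named genes called, 66 to 90 kept their call when 1 library was left out, 57 in DESeq2 without the block and 0 in edgeR without it.

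For the auxin series, leaving out 1 library gave 206 to 248 genes higher and 397 to 483 lower at 4 h, beside 476 and 627 with all. The counts at 24 and 48 h stayed within 1.5 times under leave-one-out, the replicate block and DESeq2 size factors. The across-gene correlations moved by less than 0.1. Low counts limit the near-absent genes, and 2 libraries per line limit every test.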
